A study of Mus musculus with 24 samples.

Results

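The genes described here were 10 activity-dependent immediate early genes, chosen by symbol from the 33000 genes of the count table: Fos, Fosb, Junb, Egr1, Egr2, Egr4, Arc, Npas4, Nr4a1 and Ier2. All 10 were present and all 10 passed the filter on low counts. They were counted by 3'Pool-seq, which sequences the 3′ ends of transcripts, in 24 libraries made from the frontal cortex of 3 wild-type (WT) C57BL/6 mice and 3 mice homozygous for the GFAP-IL6 transgene, labelled with the same strain, all 3 months old. The transgene places Il6, which encodes the cytokine interleukin-6, under the promoter of the astrocyte gene Gfap, so that astrocytes make it. WT mice carried no transgene, no mouse was labelled as treated, and the labels give no record of handling or behaviour before death by cervical dislocation. Each mouse gave 4 libraries from its RNA, with 2 ng or 1 ng of cDNA put into tagmentation and a letter, A or B, that marks the set. The mouse was therefore the replicate (n = 3 per genotype), and the 4 sets were technical repeats of the same 6 mice.

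Immediate early genes are transcribed within minutes of synaptic activity, without new protein synthesis. Calcium entry through NMDA receptors and voltage-gated channels activates kinases that phosphorylate factors already bound at their promoters, such as CREB and the SRF complex. Some encode transcription factors that drive a later wave of genes, and others, such as Arc, encode proteins that act at the synapse. Their transcripts decay quickly, so their level in a dissected cortex follows the recent activity of its neurons, and several of them are also induced in glia and blood vessels by growth factors and cytokines.

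Promoter sequence was at hand in RefSeq for 7 of the 10 genes (Fos, Fosb, Junb, Egr2, Egr4, Npas4 and Nr4a1), some with more than 1 start site, which gave 11 promoters. The sequences below are the 250 bases before the start of 4 of them, and take in a nuclear receptor (Nr4a1), a helix-loop-helix factor (Npas4), an AP-1 subunit (Fos) and an EGR factor (Egr4). They are from RefSeq on GRCm38.p6, read 5′ to 3′ on the strand of the gene. Capitals mark TGACG or its reverse complement CGTCA, the core of the cAMP response element to which CREB binds.
Nr4a1 (chr15:101266596-101266845, plus strand): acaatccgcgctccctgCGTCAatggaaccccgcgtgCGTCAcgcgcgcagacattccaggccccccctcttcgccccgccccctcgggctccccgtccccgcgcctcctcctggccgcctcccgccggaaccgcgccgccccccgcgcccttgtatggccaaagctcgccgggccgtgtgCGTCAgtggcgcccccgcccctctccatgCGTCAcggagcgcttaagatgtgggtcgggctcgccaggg
Npas4 (chr19:4989972-4990221, minus strand): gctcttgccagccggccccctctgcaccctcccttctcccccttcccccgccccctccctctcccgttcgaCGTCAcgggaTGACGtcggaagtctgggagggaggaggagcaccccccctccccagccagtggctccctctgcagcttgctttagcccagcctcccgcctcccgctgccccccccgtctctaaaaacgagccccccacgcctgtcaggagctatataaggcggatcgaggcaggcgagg
Fos (chr12:85473640-85473889, plus strand): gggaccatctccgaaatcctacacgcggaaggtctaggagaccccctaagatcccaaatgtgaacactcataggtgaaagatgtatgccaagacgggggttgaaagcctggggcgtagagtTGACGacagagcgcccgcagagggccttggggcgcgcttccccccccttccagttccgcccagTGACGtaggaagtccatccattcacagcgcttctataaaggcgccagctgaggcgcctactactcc
Egr4 (chr6:85513590-85513839, minus strand): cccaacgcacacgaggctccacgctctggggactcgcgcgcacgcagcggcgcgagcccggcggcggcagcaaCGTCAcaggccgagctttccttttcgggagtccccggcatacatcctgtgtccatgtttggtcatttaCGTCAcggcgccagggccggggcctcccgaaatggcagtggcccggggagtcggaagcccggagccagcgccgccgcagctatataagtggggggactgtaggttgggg
The core was found 4 times before Nr4a1 and 2 times before each of Npas4, Fos and Egr4. It was present on either strand in the 300-base promoters of 7 of 7 members, in 9 of 11 of their promoters, and in 20.8% of 32851 promoters of that length. The full palindrome TGACGTCA was in 0 of 7 members and 1.79% of promoters, where each match also holds the core. The AP-1 motif TGANTCA, bound by FOS and JUN proteins, was in 0 of 7 and 7.81%, and the EGR motif GCGTGGGCG was in 0 of 7 and 0.612%. A TATAAA box was in 2 of 7 (Fos and Junb) and 13.6% of promoters. The CArG box, bound by SRF, was in 1 of 7 (Egr2) and 1.63%. These matches describe the letters only, and nothing about the levels below is drawn from their number.

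Between 1524165 and 12256374 reads were counted per library, with a median of 4169387, and between 7852743 and 37582644 per mouse after its 4 libraries were summed. The labels were checked on Il6 itself, which had 5, 3 and 0 reads in WT mice 1, 2 and 3 and 30, 33 and 163 reads in GFAP-IL6 mice 1, 2 and 3. Excitatory neuron markers summed to between 3100 and 3866 CPM in every mouse, where CPM are the counts of a gene scaled to an equal library total. Most of this sum came from the marker Nrgn alone, at 2694 to 3435 CPM. The libraries of 2 WT mice stood apart in markers of neighbouring tissue. WT mouse 2 had the highest sum of striatal markers, 244 CPM against 127 to 167 CPM in the other 5 mice. It also had, by little, the highest sum of oligodendrocyte markers, 8093 CPM against 5177 to 7770 CPM. WT mouse 3 had 4085 CPM of choroid plexus markers, 4035 CPM of it from Ttr, against 82.1 to 756.2 CPM in the other 5. The calls between genotypes and the test among WT mice are given below with and without them, and the levels and ratios are given mouse by mouse.

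Arc, Ier2 and Nr4a1 were higher in GFAP-IL6 cortex. Arc rose about 2-fold and was the only member to pass both the p and the fold threshold. Junb and Npas4 were higher in each GFAP-IL6 mouse than in any WT mouse but did not pass the test. Egr4 was lower in each GFAP-IL6 mouse than in any WT mouse and did not pass it either, and no member was called lower. Fos, Fosb and Egr1, among the most used markers of neuronal activity, gave overlapping mice. Genotypes were compared with edgeR's quasi-likelihood test on the summed counts of the 6 mice, a gene was called at a Benjamini-Hochberg adjusted p under 0.05 over 14621 genes, and a DEG was a called gene whose absolute log2 fold change was above 1. With these rules 3 of 10 members were called, all higher in GFAP-IL6, against 1.8% of all genes called in either direction and 1.74% called higher. Arc was 1 of 10 members called a DEG, against 1.2% of all genes as DEGs higher in GFAP-IL6. Its log2 fold change went under the threshold of 1, and the number of member DEGs to 0, without WT mouse 2 (0.92) and without GFAP-IL6 mouse 2 (0.99). The median log2 fold change was 0.36 over the 10 members and -0.0069 over all genes tested. In bulk RNA, a change in the share of cells that express a gene and a change in RNA per cell cannot be told apart.

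Arc encodes a protein of the postsynaptic site that takes part in removing AMPA receptors from the membrane, and its messenger RNA travels into dendrites. The gene lies at chr15:74669083-74672570 on the minus strand (GRCm38). Its level, in CPM scaled by TMM (edgeR's correction for library composition), was 52.8, 37.9 and 64.3 in WT mice 1, 2 and 3, and 99.6, 127.9 and 103.7 in GFAP-IL6 mice 1, 2 and 3. The lowest GFAP-IL6 mouse was above the highest WT mouse. Means of 51.7 ± 13.2 CPM for WT and 110.4 ± 15.3 CPM for GFAP-IL6 (each ± SD, n = 3) gave a log2 fold change of 1.12 with a standard error of 0.151 (edgeR adjusted p = 0.00054). An exact permutation test over the 6 mice gave its smallest possible two-sided p, 0.1, so 3 mice against 3 cannot pass by that test alone. The 12 WT libraries lay between 34.9 and 71.4 CPM (median 51.9), and the 12 GFAP-IL6 libraries between 85.2 and 142.5 CPM (median 113.4), without overlap.

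Ier2 encodes a small nuclear protein induced by growth factors as well as by activity, and lies at chr8:84661331-84662852 on the minus strand. It was at 24.9, 20.9 and 22.6 CPM in WT mice 1, 2 and 3 and at 36.4, 42.4 and 32.0 CPM in GFAP-IL6 mice 1, 2 and 3. The genotypes did not overlap, and the means were 22.8 ± 1.998 CPM and 36.9 ± 5.22 CPM (each ± SD, n = 3). The log2 fold change was 0.69 with a standard error of 0.123 (edgeR adjusted p = 0.00555). Nr4a1 encodes an orphan nuclear receptor, a transcription factor induced by calcium and cAMP in neurons and by inflammatory signals in macrophages. It lies at chr15:101254269-101274795 on the plus strand. Its level was 22.6, 15.2 and 22.6 CPM in the WT mice and 31.1, 34.1 and 30.2 CPM in the GFAP-IL6 mice, again without overlap. Mean levels were 20.1 ± 4.23 CPM for WT and 31.8 ± 2.02 CPM for GFAP-IL6 (each ± SD, n = 3), and the log2 fold change was 0.67 with a standard error of 0.142 (edgeR adjusted p = 0.0196).

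**Figure D1:**
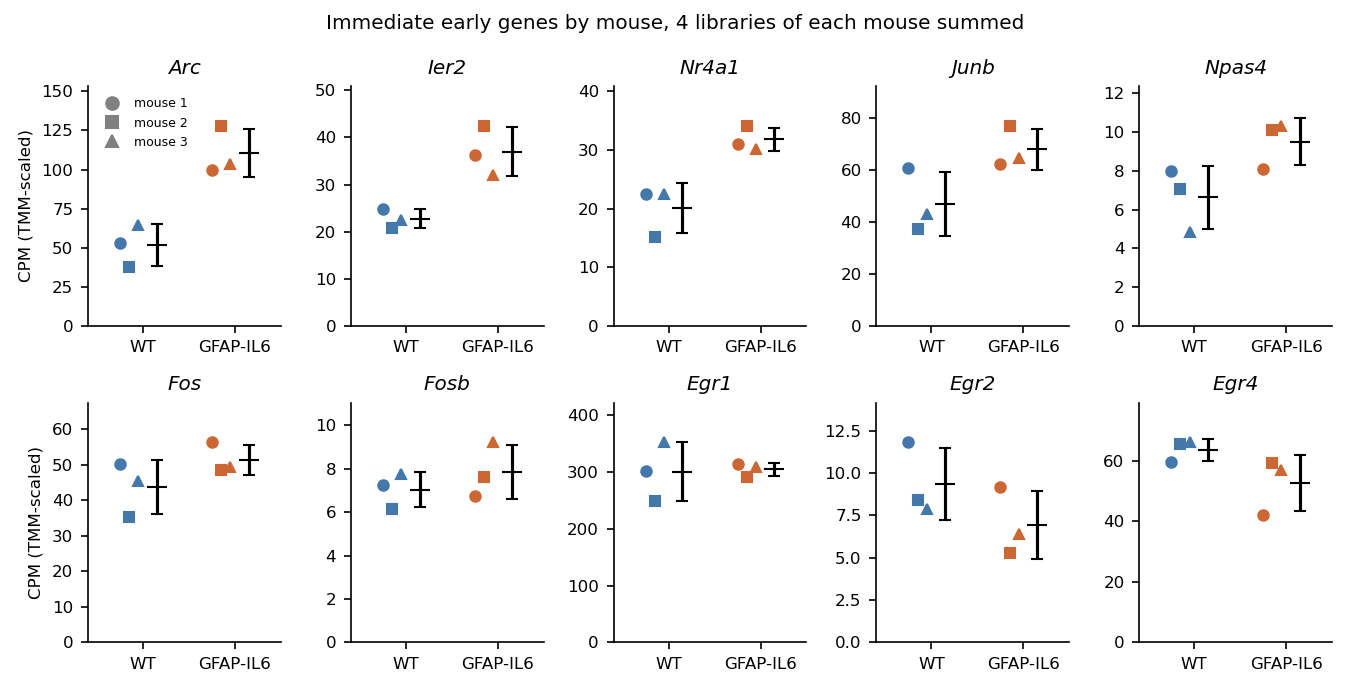
TMM-scaled CPM (y axis, linear from 0) of the 10 immediate early genes in each of 3 WT (blue) and 3 GFAP-IL6 (orange) mice, with the black bar at the mean ± SD of each genotype. The GFAP-IL6 mice lie above all WT mice for Arc, Ier2, Nr4a1, Junb and Npas4, below them for Egr4, and overlap them for Fos, Fosb, Egr1 and Egr2.

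The AP-1 subunits did not pass the test. AP-1 is a dimer of FOS and JUN family proteins that binds enhancers of later genes. Junb, a JUN subunit at chr8:84974484-84978718 on the minus strand, was at 60.8, 37.3 and 43.1 CPM in the WT mice and 62.4, 77.0 and 64.6 CPM in the GFAP-IL6 mice. The groups were apart, though WT mouse 1 lay just under GFAP-IL6 mouse 1, and the log2 fold change was 0.53 with a standard error of 0.148 (edgeR adjusted p = 0.118). It was called in 3 of 13 other ways of processing the counts, among them without WT mouse 1 (log2 fold change 0.77, edgeR adjusted p = 0.0027). The Junb gene overlaps the gene Prdx2 on the other strand, and the strand setting of the counting is not given in the sources used here. Fos, at chr12:85473890-85477273, was at 50.3, 35.4 and 45.4 CPM in the WT mice and 56.3, 48.7 and 49.2 CPM in the GFAP-IL6 mice. WT mouse 1 exceeded 2 of the 3 GFAP-IL6 mice, and the log2 fold change was 0.23 with a standard error of 0.122 (edgeR adjusted p = 0.655). Fosb, at chr7:19302696-19310051, ranged from 6.15 to 7.74 CPM in WT and from 6.75 to 9.20 CPM in GFAP-IL6 (log2 fold change 0.20, standard error 0.177, edgeR adjusted p = 0.848). The approximate 95% interval of the log2 fold change ran from -0.0089 to 0.47 for Fos and from -0.15 to 0.55 for Fosb.

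The EGR family of zinc-finger factors gave no call either, in the summed libraries or in any set. Egr1, which is expressed in cortex even without stimulation, was at 302.1, 248.5 and 352.1 CPM in the WT mice and 314, 292 and 308 CPM in the GFAP-IL6 mice. All 3 GFAP-IL6 mice fell inside the range of the WT mice, and the log2 fold change was 0.02 with a standard error of 0.108 (edgeR adjusted p = 0.985). Its approximate 95% interval, -0.19 to 0.23 on the log2 scale, leaves out a change as large as that of Arc. The sign of the Egr1 value turned without WT mouse 2 (-0.10) and without GFAP-IL6 mouse 1 (-0.0031). Egr4, at chr6:85511121-85513589, was at 59.5, 65.3 and 65.96 CPM in the WT mice and 42.2, 59.1 and 56.9 CPM in the GFAP-IL6 mice. Every GFAP-IL6 mouse was below every WT mouse, 1 by far and 2 by little, and the log2 fold change of -0.25 (standard error 0.116) did not pass the test (edgeR adjusted p = 0.546). Egr2, at chr10:67535475-67542188, was at 11.8, 8.42 and 7.87 CPM in the WT mice and 9.17, 5.27 and 6.40 CPM in the GFAP-IL6 mice. The groups overlapped through GFAP-IL6 mouse 1, with a log2 fold change of -0.50 and a standard error of 0.214 (edgeR adjusted p = 0.497).

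Npas4 encodes a basic helix-loop-helix factor that answers to calcium entry more selectively than the others and that controls inhibitory synapses. It lies at chr19:4984355-4990316 on the minus strand. Its level was 8.01, 7.09 and 4.85 CPM in the WT mice and 8.12, 10.1 and 10.3 CPM in the GFAP-IL6 mice. The lowest GFAP-IL6 mouse exceeded the highest WT mouse by little, and the log2 fold change of 0.49 (standard error 0.185) did not pass the test (edgeR adjusted p = 0.369). Npas4 was thinly counted, with 37 reads in all in WT mouse 3 and 1 read in its 1 ng library of set B. Over the 10 members, GFAP-IL6 mice were all above the WT mice for 5, against 8.43% of all genes tested, and all below for 1 (Egr4), against 5.94%.

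Arc and Egr1 are often induced by the same stimuli, and here their ratio differed more between genotypes than within them. Reads of Arc per read of Egr1 were 0.175, 0.152 and 0.182 in WT mice 1, 2 and 3 and 0.317, 0.438 and 0.336 in GFAP-IL6 mice 1, 2 and 3. In single libraries the ratio ran from 0.137 to 0.199 in WT and from 0.284 to 0.514 in GFAP-IL6. Libraries were less apart with other members below Arc. Arc over Fos overlapped, at 0.797 to 1.59 in WT and 1.42 to 3.12 in GFAP-IL6. Arc over Egr4 was barely apart, at 0.506 to 1.486 in WT and 1.504 to 3.28 in GFAP-IL6. These ratios do not depend on how libraries were scaled. They were given no test, since they were formed after the levels of the genes were seen. WT mouse 2, which was low for Arc and for Egr1, differed from the other WT mice by less in the ratio of Arc to Egr1 than in the level of Arc.

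**Figure D2:**
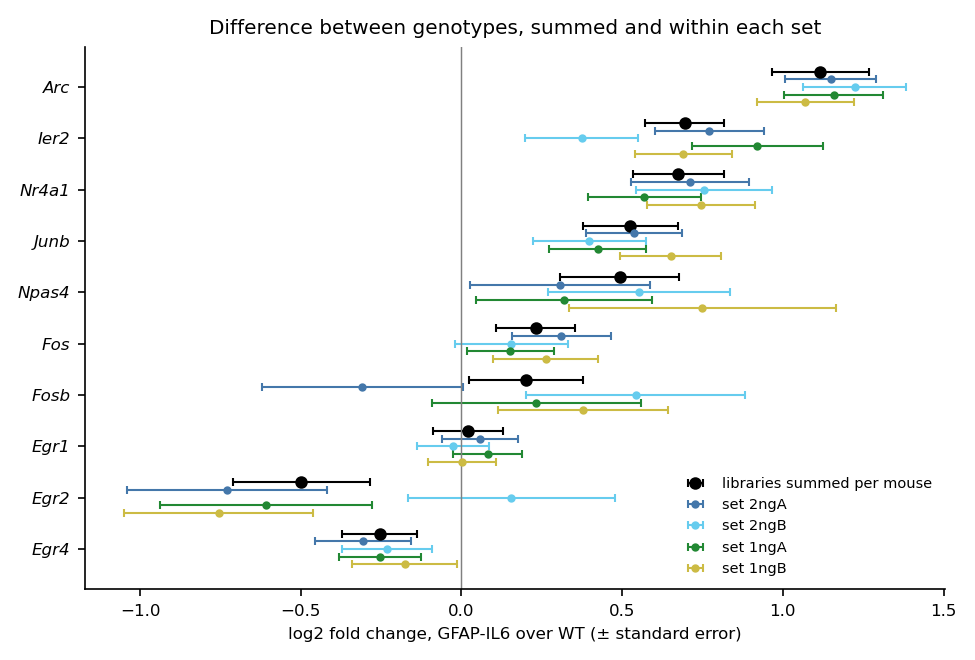
Log2 fold change of GFAP-IL6 over WT ± standard error (x axis) for each member, from the libraries summed per mouse (black) and from each of the 4 sets (colours). The 5 estimates of Arc lie between 1.07 and 1.22, and those of Egr1 between -0.027 and 0.081.

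The difference of Arc was present in each technical repeat. Within sets, the log2 fold change of Arc was 1.15 (2 ng, set A), 1.22 (2 ng, set B), 1.16 (1 ng, set A) and 1.07 (1 ng, set B), called in 4 of 4. Ier2 was called in 3 of 4 sets and missed in the 2 ng libraries of set B, where its log2 fold change was 0.37 (edgeR adjusted p = 0.702) against 0.69 to 0.92 in the others. Nr4a1 kept a log2 fold change between 0.57 and 0.76, with all GFAP-IL6 libraries above all WT libraries in 4 of 4 sets, and was called only in the 1 ng libraries of set B, as was Junb. The number of members called, each higher in GFAP-IL6, was 2 in the 2 ng libraries of set A (background 1.01% of genes), 1 in the 2 ng libraries of set B (1.05%), 2 in the 1 ng libraries of set A (1.07%) and 4 in the 1 ng libraries of set B (1.06%). Egr2 and Fosb turned sign between sets. Egr2 was at 0.16 in the 2 ng libraries of set B and between -0.76 and -0.61 in the other sets, and Fosb was at -0.31 in the 2 ng libraries of set A and between 0.23 and 0.54 in the others, with standard errors of 0.264 to 0.341 for both genes.

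**Figure D3:**
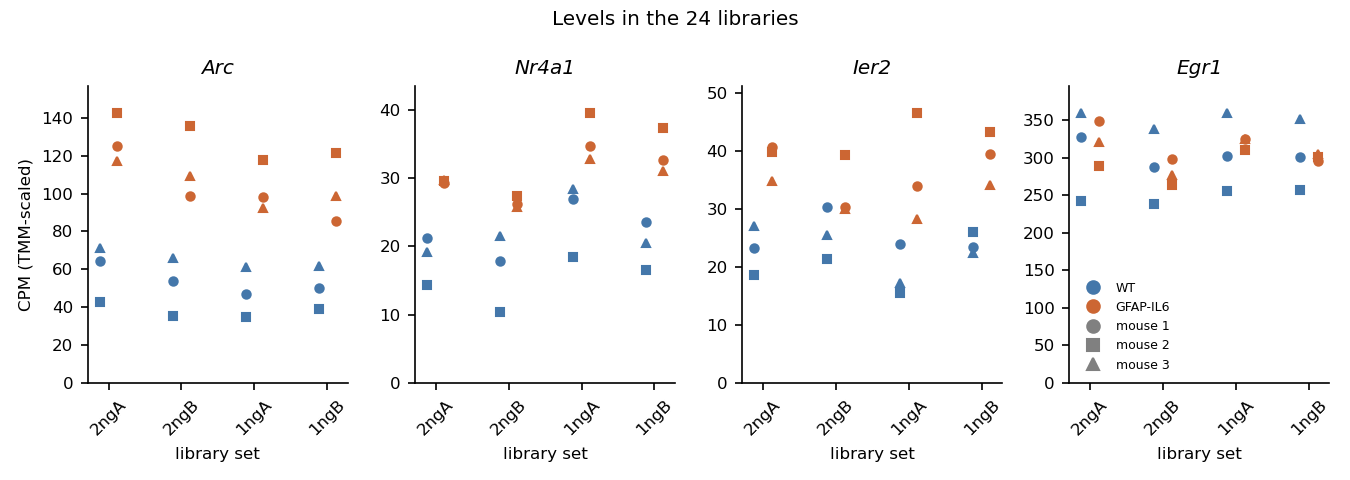
TMM-scaled CPM (y axis, linear from 0) of Arc, Nr4a1, Ier2 and Egr1 in the 24 libraries, by library set, with WT in blue, GFAP-IL6 in orange and a symbol for each mouse. For Arc and Nr4a1 the 3 GFAP-IL6 libraries lie above the 3 WT libraries in each of the 4 sets, and for Egr1 they overlap in each.

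The mice of a genotype also differed among themselves. A quasi-likelihood F test in edgeR over the 24 libraries compared the RNA samples of the 3 mice of each genotype, with the spread between libraries of a mouse as the error. These p-values concern single RNA samples, since the libraries of a mouse are not further animals. Among WT mice, 5 of 10 members differed (Fos, Junb, Egr1, Arc and Nr4a1), against 17.6% of all genes tested. Without WT mouse 2, 3 members differed between the other two (Junb, Egr1 and Arc, against 17.1% of genes). Without WT mouse 1 there were also 3 (Egr1, Arc and Nr4a1, against 8.29%), and without WT mouse 3 the number was 5 (4.73%). Over all 3 WT mice, Arc was 1.70 times as high in the highest as in the lowest WT mouse (edgeR adjusted p = 5.59e-08), Junb 1.63 times (6.80e-07), Nr4a1 1.48 times (0.000876), Egr1 1.42 times (3.59e-10) and Fos 1.42 times (0.00457). Among GFAP-IL6 mice, 4 of 10 members differed (Arc, Junb, Ier2 and Egr4), against 17.3% of all genes. There, Arc spanned 1.28 times (edgeR adjusted p = 0.000168), Egr4 1.40 times (0.00791), Ier2 1.32 times (0.0163) and Junb 1.23 times (0.0210).

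WT mouse 2 was low for most members. It was the lowest WT mouse for 7 of 10 members (Fos, Fosb, Junb, Egr1, Arc, Nr4a1 and Ier2) and the highest for 0. For Egr1, Arc and Nr4a1 it was the lowest of the 3 in 4 of 4 sets. The 10 members together summed to 482.1 CPM in this mouse, 600.1 CPM in WT mouse 1 and 636.4 CPM in WT mouse 3, against 665.9, 704.2 and 670.9 CPM in the GFAP-IL6 mice. Leaving out Egr1, which held the most counts, the sums were 297.9, 233.6 and 284.3 CPM in WT mice 1, 2 and 3 and 351.9, 412.1 and 362.7 CPM in GFAP-IL6 mice 1, 2 and 3. WT mouse 2 is also the mouse with the highest CPM sums of striatal markers and, by little, of oligodendrocyte markers. The part of these markers in its low values was not tested. GFAP-IL6 mouse 2 was the highest of its genotype for 5 of 10 members (Junb, Egr4, Arc, Nr4a1 and Ier2) and the lowest for 3 (Fos, Egr1 and Egr2).

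**Figure D4:**
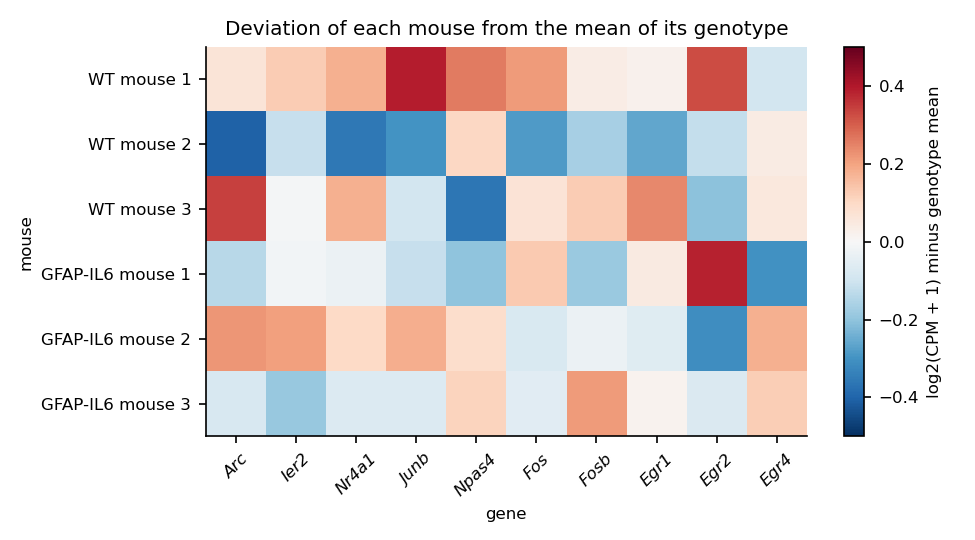
Deviation of each mouse from the mean of its genotype, in log2(CPM + 1), for the 10 members (columns) in the 6 mice (rows), red above and blue below the mean. WT mouse 2 is blue for 8 of the 10 members, all but Npas4 and Egr4.

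The calls between genotypes, of members and of all genes, changed when a mouse was left out. Over all genes, 263 of 14621 were called, against 182 of 14988 without WT mouse 2 and 177 of 14861 without GFAP-IL6 mouse 2. Without WT mouse 3 it was 246 of 15050. Without WT mouse 2 the number of members called went from 3 to 1, with Arc alone (log2 fold change 0.92, edgeR adjusted p = 0.00195), while Nr4a1 (0.49, edgeR adjusted p = 0.1099) and Ier2 (0.63, edgeR adjusted p = 0.0514) missed the threshold. Without GFAP-IL6 mouse 2 the number was also 1, again Arc (log2 fold change 0.99, edgeR adjusted p = 0.00475), and the adjusted p was 0.118 for Nr4a1 and 0.0502 for Ier2 in edgeR. Without WT mouse 3, the mouse with the most choroid plexus transcripts, 3 members were called and Arc was at a log2 fold change of 1.29. GFAP-IL6 mice 1 and 2, with 756.2 and 433.3 CPM of choroid plexus markers, remained in that comparison. Arc was called in 13 of 13 alternatives, with log2 fold changes from 0.92 to 1.29, Ier2 in 11 and Nr4a1 in 10.

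On the log2(CPM + 1) scale, the SD between mice of a genotype, pooled over both, was 0.30 for Arc, 0.28 for Junb, 0.26 for Npas4, 0.23 for Nr4a1, 0.20 for Fos, 0.19 for Egr4, 0.18 for Egr1 and Fosb and 0.16 for Ier2, with Egr2 highest at 0.32. Between libraries of a mouse the SD was 0.087 for Egr1 and 0.16 for Arc, and reached 0.43 for Egr2 and 0.58 for Npas4, the members with few reads. The biological coefficient of variation that edgeR estimated for the 10 members lay between 0.0995 (Egr1) and 0.166 (Egr2), or between the 41.6th and the 75.0th percentile of all genes, whose median was 0.109.

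Levels of some members differed with the preparation of the library. With 2 ng rather than 1 ng of cDNA, Arc was higher by 0.22 on the log2 scale (standard error 0.0460, edgeR adjusted p = 0.000134), and Nr4a1 was lower, with a log2 difference of -0.33 (standard error 0.0695, edgeR adjusted p = 0.000131). These were 2 of 10 members called, against 26.1% of all genes. In set A rather than set B, Junb (log2 difference 0.32), Fos (0.18) and Egr1 (0.097) were higher and Egr4 (-0.27) was lower, 4 of 10 members called against 26.2% of all genes. What the letters A and B stand for is not given in the labels. Each set holds all 6 mice, so neither difference was confounded with genotype. The study's protocol pools samples after reverse transcription and tagments the pool, and the labels do not say which libraries shared a pool. If each set was pooled as a whole, the p-values for cDNA amount and set letter do not measure the spread between pools. No member was called for an effect of cDNA amount that differed between genotypes. This was edgeR's interaction test, which called 0 of 13249 genes (0% of all), with 268 genes and 0 members at an unadjusted p under 0.05. For Arc, the interaction was 0.067 on the log2 scale, with an approximate 95% interval from -0.12 to 0.26. The interval was narrower for Egr1 (-0.14 to 0.089). It was wide for Fosb (-0.81 to 0.34), Egr2 (-0.21 to 0.90) and Npas4 (-0.68 to 0.51), where a difference may have been missed.

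Other rapid immediate early genes were also called. Of 27 such genes listed, 25 were tested, and 3 rose in GFAP-IL6 cortex while none fell, against 1.74% of all genes called higher. The number was 1 (Btg2) without WT mouse 2 and 2 (Btg2 and Dusp1) without GFAP-IL6 mouse 2, and 6 without GFAP-IL6 mouse 1. Csrnp1 kept its call in 8 of 13 alternatives, Dusp1 in 12 and Btg2 in 13. Btg2, an antiproliferative gene, was at 11.3, 11.2 and 13.4 CPM in the WT mice and 20.2, 23.2 and 19.3 CPM in the GFAP-IL6 mice (log2 fold change 0.82, standard error 0.131, edgeR adjusted p = 0.00226). Dusp1, a phosphatase that switches off MAP kinases, was at 25.9, 20.1 and 28.2 CPM in WT and 46.3, 42.3 and 35.2 CPM in GFAP-IL6 (0.74, standard error 0.136, edgeR adjusted p = 0.00694). Csrnp1, a nuclear protein induced by AXIN1, was at 6.66, 6.04 and 7.48 CPM in WT and 10.8, 13.9 and 10.1 CPM in GFAP-IL6 (0.80, standard error 0.172, edgeR adjusted p = 0.0225). For all 3 genes the mice of the genotypes did not overlap. Of the 27 listed, 7 had every GFAP-IL6 mouse above every WT mouse, against 8.43% of all genes tested, and 1 had every one below, against 5.94%. The list's median log2 fold change was 0.15, and 16 of the 25 were above 0. Egr3 and Fosl1 did not pass the filter, with 31 and 15 reads in all 24 libraries.

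None of the later genes of the activity response passed the test. Of 16 genes that follow the first wave, 0 were called, with a median log2 fold change of 0.13 and a range from -0.19 to 0.47. Over all genes 1.8% were called, so 0 called in a list this short is near that share. Nrn1, which encodes a neurotrophic surface protein, was at 350 ± 18.6 CPM for WT and 308 ± 24.8 CPM for GFAP-IL6, and Vgf, which encodes a secreted neuropeptide precursor, at 239 ± 23.6 and 215 ± 47.5 CPM (SD, n = 3 each). Neither passed the test (edgeR adjusted p = 0.572 for Nrn1 and 0.856 for Vgf). Upstream of the immediate early genes, 0 of 26 receptors, kinases and transcription factors were called, with a median of -0.049. Ppp3ca, the catalytic subunit of calcineurin, was at a log2 fold change of -0.084 and Mef2c, a neuronal transcription factor, at -0.13. Of 6 partners and co-repressors of the members' proteins, 0 were called, with Arnt2, which pairs with NPAS4, at -0.064 and Rxrb, which pairs with NR4A1, at -0.19.

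**Figure D5:**
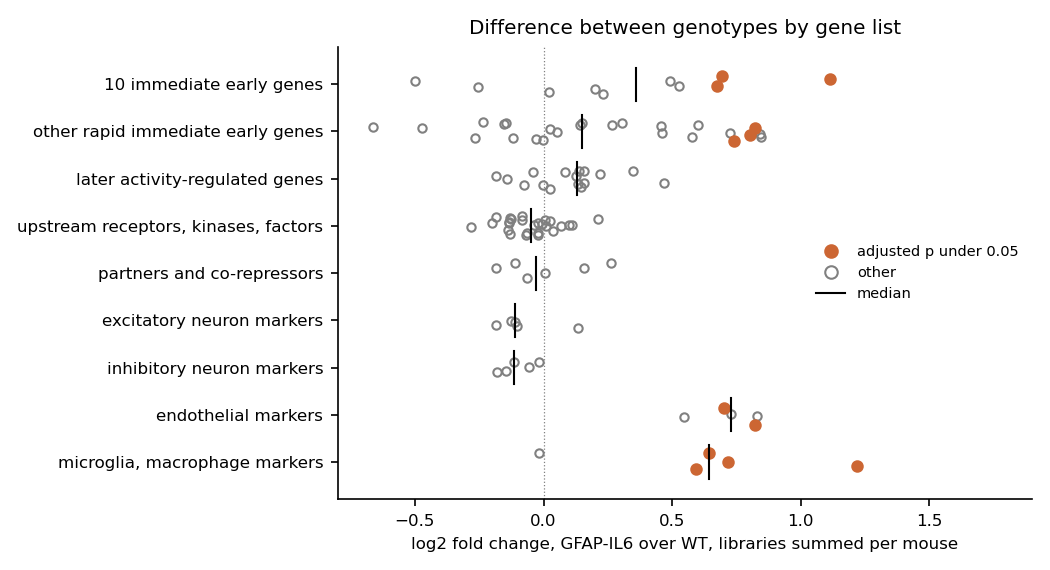
Log2 fold change of GFAP-IL6 over WT (x axis, libraries summed per mouse) of each gene tested in 9 lists (rows), with called genes in orange, other genes as open circles and the median as a black line. The upstream genes and the neuron markers lie close to 0, and called genes are found among the rapid immediate early genes and the endothelial and microglial markers.

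Part of the genes downstream of the cytokine itself rose. Of 11 IL-6 and STAT3 response genes, 6 rose and none fell, against 1.74% of all genes called higher. The median log2 fold change of the list was 1.17. The 6 called were Lcn2 (3.67), an iron-scavenging protein of reactive astrocytes, Osmr (2.08), Socs3 (1.62), the feedback inhibitor of this pathway, Cebpd (1.25), Il4ra (1.17) and Serpina3n (0.98). Lcn2 was low in WT, at 0.22 to 0.42 CPM. The number called was 4 without WT mouse 2 or GFAP-IL6 mouse 3, where Socs3 and Il4ra missed the threshold, and Socs3 was called in 7 and Il4ra in 8 of 13 alternatives. The list was drawn up with earlier results of these samples known and is no independent evidence of their direction.

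Markers of the cells that can express these genes moved in part. Over all genes tested, 1.74% were called higher in GFAP-IL6. Of 5 excitatory neuron markers 0 were called, and their sum was 3147 to 3866 CPM in WT and 3100 to 3346 CPM in GFAP-IL6. Of 5 inhibitory neuron markers 0 were called, with sums of 1176 to 1321 CPM and 1119 to 1200 CPM. Of 5 microglia and macrophage markers 4 rose (Aif1, Cx3cr1, Csf1r and Tmem119), and their sum was 199.9 to 221 CPM in WT and 293 to 370.4 CPM in GFAP-IL6. Of 5 endothelial markers 2 rose (Flt1 and Ly6c1), with sums of 92.2 to 103 CPM and 116 to 194 CPM. Most of these sums came from Ly6c1, at 62.8 to 75.1 CPM in WT and 79.5 to 145.5 CPM in GFAP-IL6. Of 5 astrocyte markers only Gfap rose (log2 fold change 2.44), and their sum was 591 to 631 CPM in WT and 705 to 875 CPM in GFAP-IL6. Without WT mouse 2 the markers called were 2 of microglia (Aif1 and Cx3cr1), 0 of endothelium and 2 of astrocytes (Gfap and Aqp4). Without WT mouse 3 they were 3, 2 and 1. With GFAP-IL6 mouse 3 left out, 1 microglial marker was called (Aif1) and 1 endothelial marker (Flt1), with WT mouse 1 left out 2 and 1, and with GFAP-IL6 mouse 2 left out 0 endothelial markers. The microglial, endothelial and astrocyte sums did not overlap between genotypes, as for Arc, Ier2 and Nr4a1, and their part in the higher levels of these genes was not tested. The astrocyte sum includes Gfap, at 16.0 to 23.5 CPM in WT and 80.8 to 146.3 CPM in GFAP-IL6. Gfap was the only astrocyte marker higher in every GFAP-IL6 mouse than in any WT mouse, and Aldh1l1 was lower in every one. No marker of oligodendrocytes, striatal neurons, choroid plexus or blood was called, of 5, 3, 5 and 5 tested. Drd2, a striatal marker, was listed at 0 in all 24 libraries.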

How the data were processed

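3'Pool-seq reads the 3′ ends of transcripts. The authors trimmed polyA stretches, aligned with STAR 2.4, counted with featureCounts on GENCODE genes, and deposited raw counts per gene and library, with no normalization. Counts near a 3′ end do not scale with gene length, so no length correction was applied. Sums over genes and ratios of Arc to other members were compared between mice or libraries only. The labels name hg19 as the build and the study's methods mm10, and the gene identifiers are murine. Positions are from GENCODE vM21 (GRCm38).

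The 4 libraries of a mouse were summed and tested with edgeR 4.0.16 (R 4.3.3, TMM, filterByExpr) by the quasi-likelihood test, adjusted over all genes tested. The alternatives were DESeq2 1.42.0, which the study's methods name, its size factors, other filters, a block of mouse numbers, each mouse left out, equal depth, and voom in limma 3.58.1. Approximate 95% intervals were taken from the standard error. On simulated data for this comparison, over 14620 genes, edgeR recovered 71.64% of genes changed 1.5-fold and 98.51% of those changed 2-fold, with 2.174% false calls. For the test among WT mice, over 12916 genes, these were 74.63%, 95.52% and 3.226%.

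The members and all gene lists were chosen with earlier results of these data known. Of the other lists, the text names the called genes, at most 6, or, where none was called, the 2 with the highest mean CPM, and gives marker lists as counts and ranges. The 5 genes most like the members were ranked by the lowest of 4 correlations, 1 per set, of log2(CPM + 1) with the members' mean, among genes of at least 5 CPM. No label says that the mice came from separate litters. Reads are not independent molecules, since no molecular identifiers were used. Figures were drawn and tables made with Python 3.11.15, numpy 2.4.6, pandas 2.3.3, scipy 1.17.1 and matplotlib 3.10.9.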

Additional observations from a re-analysis of the deposited data

How the results depend on the processing

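The 263 genes called between genotypes became 462 with no filter on low counts, 528 with voom over the 24 libraries, and 146 to 321 with 1 mouse left out, lowest without GFAP-IL6 mouse 3. The 3 members called became 1 to 4 with 1 mouse left out and 1 with a log2 fold change above 1 as well. In the 2 ng libraries of set A the 2 members called became 1 by DESeq2, 4 with no filter, 1 to 4 with 1 mouse left out and 1 with the fold threshold. In the 1 ng libraries of set A, 2 became 1 to 3 with 1 mouse left out and 1 with the fold threshold. In the 2 ng libraries of set B, 1 became 2 with no filter and 1 to 2 with 1 mouse left out. In the 1 ng libraries of set B, 4 became 1 to 3 with 1 mouse left out, 1 with the fold threshold and 2 with the replicate block. Without a mouse term, the members called went from 2 to 1 between cDNA amounts and from 4 to 2 between sets A and B. The 5 members that differed among WT mice became 3 to 5 with 1 WT mouse left out, an alternative chosen after seeing the data. Log2 fold changes near 0 turned sign with 1 mouse left out for Egr1 (-0.10 to 0.15, below 0 without WT mouse 2 or GFAP-IL6 mouse 1), Vgf (-0.27 to 0.021, above 0 without GFAP-IL6 mouse 1), Ppp3ca (-0.14 to 0.0093) and Mef2c (-0.24 to 0.016), both above 0 without WT mouse 3. The cause was not tested in these cases. Nr4a1 also missed the threshold without GFAP-IL6 mouse 3 (edgeR adjusted p = 0.0506), and Dusp1 without WT mouse 2 (edgeR adjusted p = 0.0569).

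Deviations of same-numbered mice from the means of their genotypes correlated at -0.049, -0.032 and -0.034 across 14621 genes. Those of different-numbered mice correlated at -0.080 to 0.127. Deviations from a mean of 3 mice constrain each other, so these values cannot show whether mice of the same number shared a litter or batch. With that number as a replicate block, 220 genes and 3 members were called. In the simulation, with well-counted genes of median spread, a change of 1.5-fold was near what 3 mice against 3 can detect. Members that missed the threshold may therefore still differ.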

Other observations

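The 5 genes outside all lists that followed the members' mean level most closely over the 6 mice were ranked by the lowest of their 4 correlations, 1 in each set, among 10626 genes. They were Bsg, which encodes the membrane protein basigin (lowest r = 0.853), Xbp1, a transcription factor of the unfolded protein response (0.802), Hps5, a subunit of a complex of lysosome-related organelle biogenesis (0.784), Fcgr3, an Fc receptor of microglia and macrophages (0.762), and Atp1b2, a sodium pump subunit of astrocytes (0.760). The members' mean was itself higher in each GFAP-IL6 mouse than in any WT mouse, so genes higher in GFAP-IL6 rank high, and Hps5 reached the minimum of 5 CPM only through those mice (3.08 CPM in WT, 6.98 CPM in GFAP-IL6). The members did not all follow their mean, which includes each of them. Over the 4 sets, r with it was 0.90 to 0.996 for Nr4a1 and 0.79 to 0.96 for Arc. For Egr1 it was 0.013 to 0.68, for Egr2 -0.29 to 0.24 and for Egr4 -0.98 to -0.052. With 6 mice and this many genes, such values are a description, and 0 of the 10626 genes reached 0.9 in all sets. Between genotypes, Bsg and Xbp1 did not pass the test (edgeR adjusted p = 0.345 and 0.367). Hps5 and Atp1b2 did (edgeR adjusted p = 0.0066 and 0.0184). Bsg was at 619, 573 and 598 CPM in WT mice 1, 2 and 3 and at 691, 689.5 and 699.6 CPM in GFAP-IL6 mice 1, 2 and 3. WT mouse 2 was lowest for Bsg, as in the members' mean by which it was ranked. Fcgr3 was at 31.4, 27.9 and 32.4 CPM in WT and 74.1, 88.1 and 102.2 CPM in GFAP-IL6 (log2 fold change 1.54, edgeR adjusted p = 1.59e-06).

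Trib1 and Zfp36, rapid genes chosen here after their values were seen, lay just beyond the threshold. Trib1 was at 14.9, 11.8 and 12.2 CPM in WT and 16.3, 21.8 and 19.8 CPM in GFAP-IL6 (edgeR adjusted p = 0.0543). Zfp36, which encodes a protein that speeds the decay of short-lived transcripts, was at 3.07, 3.82 and 3.28 CPM in WT and 4.85, 6.61 and 6.51 CPM in GFAP-IL6 (edgeR adjusted p = 0.0661).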
